A study of Mus musculus with 13 samples.

Results

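Macrophages and other leukocytes of the mouse kidney were examined through the open chromatin of 10 genes, Spi1, C1qa, C1qb, C1qc, Csf1r, Ptprc, Cd74, Batf, Runx1 and Irf8. The genes were chosen by name. Their windows hold all peaks of the deposited list that overlap the gene body or lie within 10 kb of the gene start in mm10 (GENCODE M21), which gave 135 of the 300755 peaks, some of them in the windows of several genes. Nuclei of whole kidneys were profiled by single nuclei ATAC-seq (snATAC-seq), which cuts and tags open DNA with the Tn5 transposase, in 2 P0 samples, 1 P21 sample and 2 P56 samples. The P0 kidneys came from neonates and the P21 and P56 kidneys, grouped as adult, from mice of 3 and 8 weeks, and the labels name no genetic change or treatment. The labels name no strain for these nuclei and do not say whether a sample held 1 animal or several. The matrix is binarized, so that 1 or more fragments in a peak make it open in that nucleus. Cluster names are those deposited with the nuclei. Of 13 clusters used, immune was the smallest, with 386 of 28316 nuclei.

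Kidney macrophages engulf debris, present antigen and arise partly from cells that settle before birth, so the organ at birth and the adult organ need not hold the same mixture of leukocytes. Spi1 encodes PU.1, an ETS family factor needed for the myeloid lineage, and Irf8, Batf and Runx1 encode factors that act in myeloid and lymphoid cells. Csf1r is the receptor for the growth factor that keeps macrophages alive, and C1qa, C1qb and C1qc encode the chains of complement component C1q. Ptprc encodes CD45, a phosphatase on the surface of nearly all leukocytes, and Cd74 encodes the invariant chain that escorts MHC class II molecules.

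The immune nuclei numbered 99 and 57 in the P0 samples, 45 in the P21 sample and 84 and 101 at P56, and a count of 0 in a sample allows a share of up to 2.97% to 6.67%. Their median number of open peaks was 3677 and 3025 at P0, 2259 in the P21 sample and 2090 and 2730 at P56, while in PST nuclei, the deepest cluster, the sample medians ran from 5398.5 to 12173. Shares of nuclei are therefore not on one depth scale across stages and clusters, and values after thinning each nucleus to 1000 open peaks are given where they change a reading. Nuclei with fewer than 1000 open peaks were left out of the thinned shares. This kept 94 and 50 immune nuclei at P0, 40 in the P21 sample and 77 and 97 at P56. A total of 477 barcodes occurred in more than 1 sample, and 14 immune nuclei carried one of them. Counting error alone is covered by the intervals given here. P0 and adult nuclei came from different libraries, so stage and library cannot be told apart. A share can differ through another mix of leukocytes or through more open chromatin in each, which cannot be told apart here.

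Sequences are shown from peaks led by immune nuclei at the C1qc start and in introns of Spi1 and Ptprc. A motif matched in each, and later values rest on all but the Spi1 peak with the AP-1 match. Capitals mark a match to one of 6 motifs searched on both strands in the 300 bases around each peak's centre, namely GAGGAAGT (PU.1 type ETS site), GGAANNGAA (ETS-IRF composite), GAAANNGAA (IRF), TGTGGTT (RUNX), TGANTCA (AP-1) and TTGCNNAA (C/EBP). The first and second motifs both hold GGAA, so that their matches can overlap. The mm10 sequence was read from the reference genome and is written on the plus strand unless another strand is named. The peak at the C1qc start (chr4:136893020-136893355) overlaps the first exon and a UTR, and the stretch shown lies outside the UTR.
C1qc start, chr4:136893076-136893135: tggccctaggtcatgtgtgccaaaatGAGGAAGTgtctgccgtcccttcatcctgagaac
Spi1 intron, chr2:91083010-91083069: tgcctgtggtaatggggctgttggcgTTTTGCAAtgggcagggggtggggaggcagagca
Spi1 intron, chr2:91086551-91086609: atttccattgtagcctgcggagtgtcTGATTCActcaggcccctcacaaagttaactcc
Ptprc intron, chr1:138136546-138136606: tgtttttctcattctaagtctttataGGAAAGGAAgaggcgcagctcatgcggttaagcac
Ptprc intron, chr1:138136494-138136552: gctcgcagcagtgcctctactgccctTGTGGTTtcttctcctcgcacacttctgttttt
These 5 stretches hold, in order, a PU.1 type site, a C/EBP match, an AP-1 match, an ETS-IRF composite and a RUNX match. The AP-1 match lies in a Spi1 peak (chr2:91086435-91086854) with a mean share of 9.24% in immune nuclei.

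The peaks beside the C1qb and C1qa starts were open almost only in immune nuclei, and none of the 6 motifs was found in their 300 central bases. The C1qb peak (chr4:136886208-136886674) begins 21 bases upstream of the annotated start, and the C1qa peak (chr4:136898892-136899194) begins 89 bases upstream. Their central 150 bases are given on the minus strand, from which both genes are read, and have no capitals because no motif matched.
C1qb, chr4:136886366-136886515: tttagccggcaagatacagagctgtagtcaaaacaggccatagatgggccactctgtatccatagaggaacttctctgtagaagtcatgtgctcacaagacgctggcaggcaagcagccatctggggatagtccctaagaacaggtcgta
C1qa, chr4:136898968-136899117: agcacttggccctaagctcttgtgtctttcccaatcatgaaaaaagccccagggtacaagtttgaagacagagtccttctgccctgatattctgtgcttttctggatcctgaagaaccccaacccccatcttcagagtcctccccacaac

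Placed by the first listed gene of each peak, 87 of all 135 lay in introns, 25 overlapped an exon, 18 lay upstream and 5 downstream. The C1qc start peak and chr4:136892505-136892777, both over C1qc exons, were thereby counted as downstream of C1qa. Immune nuclei had the highest mean share in 49 peaks (36.3%, exact 95% interval 28.2 to 45.0), where 5.19% of all peaks in the list had their highest share there. PST followed with 21 peaks, intercalated cells with 13 and nephron progenitors with 12. The lead held in each of the 5 samples for 15 peaks (11.1%, against 1.06% of all peaks). At least 5% of immune nuclei were open at 27 member peaks (20%), compared with 5.35% of all peaks, and immune nuclei led at 23 of these 27 (85.2%), against 24.9% of all peaks open as widely. The clusters were made from these same nuclei and C1qb was among the marker genes used to name the immune cluster, so these counts describe the clusters and test nothing. The 49 peaks were picked for their higher share in immune nuclei, so an excess there is fixed by the choice. At least 1 of them was open in 336 immune nuclei (87.0%), and in 22.9% of DCT to 48.1% of PST nuclei.

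**Figure D1:**
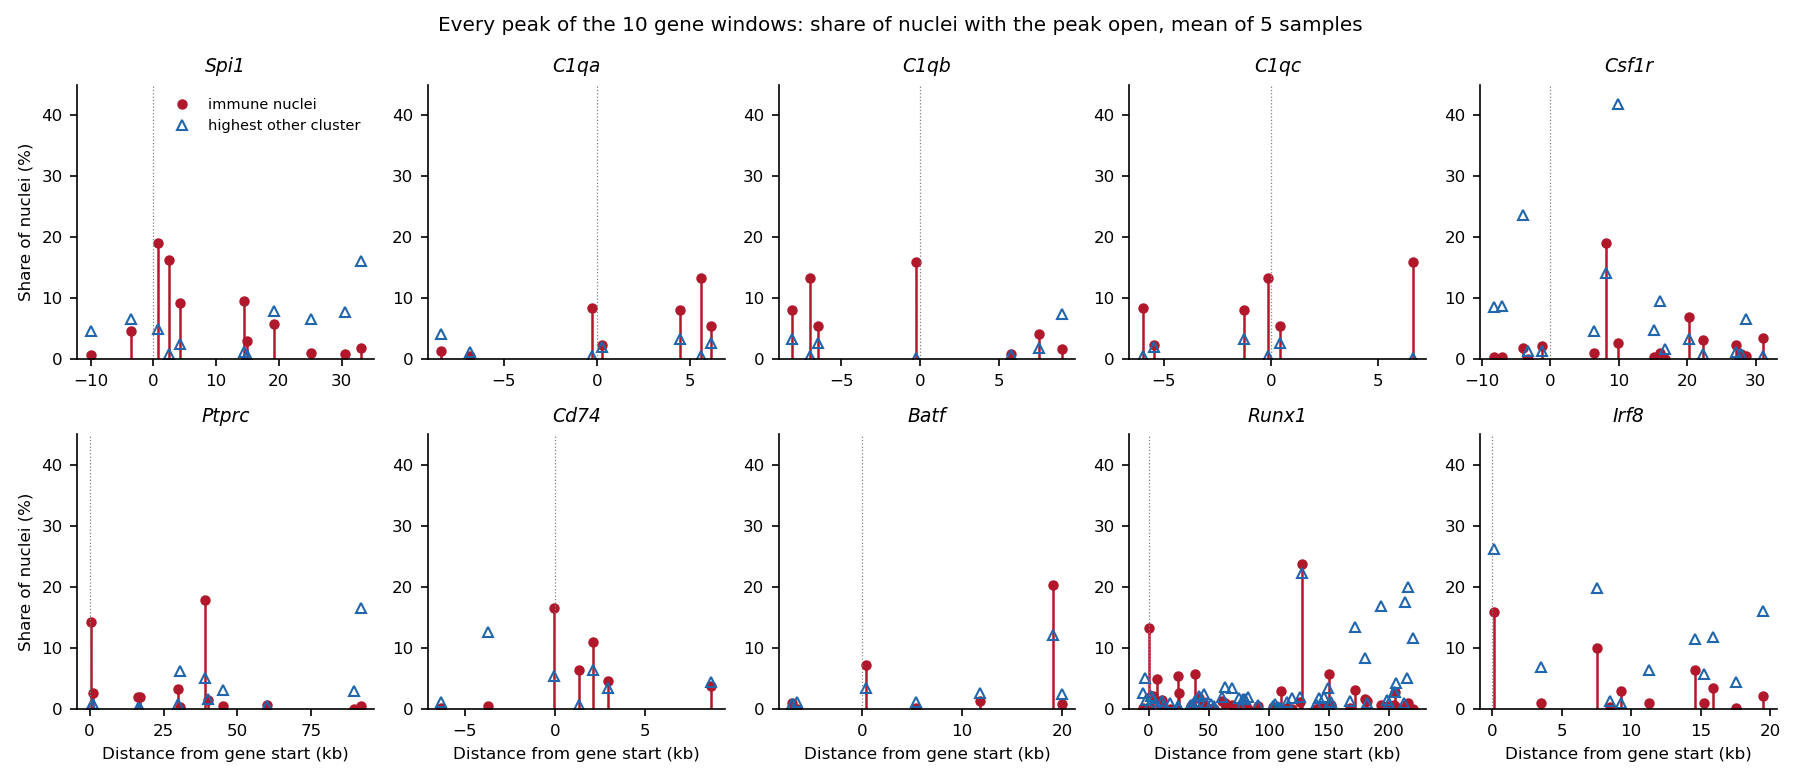
Share of nuclei (%, mean of 5 samples) with each peak open against its distance from the gene start (kb, positive downstream), for immune nuclei (red points) and the highest other cluster (blue triangles). Red points stood above the triangles near the starts of Spi1, the C1q genes, Ptprc and Runx1, while PST reached 41.8% at a Csf1r peak where immune nuclei had 2.73%.

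The C1q genes lie side by side on the minus strand of chromosome 4, C1qb from 136880129 to 136886187, C1qc from 136889804 to 136893065 and C1qa from 136895917 to 136898803, and shared most of their peaks. Immune nuclei led at 5 of 7 C1qa peaks, 6 of 7 C1qb peaks and all 6 C1qc peaks. The C1qb peak shown above was open in 18.2% and 21.1% of immune nuclei at P0, 11.1% in the P21 sample and 13.1% and 15.8% at P56. All other clusters stayed far below, the highest being loop of Henle with 0.244% ± 0.351 (SD, n = 5 samples), a ratio of 64.9. The C1qc start peak had 14.1% and 24.6% at P0, 6.67% in the P21 sample and 8.33% and 12.9% at P56, and its next cluster was nephron progenitors with 0.456%. The peak beside the C1qa start reached 8.33% ± 4.56 in immune nuclei and 0.546% in podocytes. The window of C1qb also held a peak (chr4:136876912-136877479) highest in CNT, with 7.34%. Each of the 3 immune peaks was open in fewer adult than P0 nuclei on average, with the P21 sample lowest for all of them.

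For Spi1 (ENSMUSG00000002111.8, chr2:91082390-91115756), 5 of 11 peaks were led by immune nuclei and 4 of these in each sample. The intronic peak 0.766 kb from the start (chr2:91082917-91083395) was open in 24.2% and 26.3% of immune nuclei at P0, 20% in the P21 sample and 10.7% and 13.9% at P56, with both P0 values above the adult ones. Endothelial nuclei were next with 4.92% ± 4.70. A second intronic peak (chr2:91084432-91085199) had 16.2% ± 12.1, and its spread came from 36.8% in the P0 sample 2. At the far end of the gene, a peak over an exon (chr2:91115038-91115792) had 1.84% in immune and 16.1% in PST nuclei, so the Spi1 window is not immune throughout. Ptprc (chr1:138062861-138175708) showed the same split. An intronic peak 39.1 kb from its start (chr1:138136296-138136923) was open in 17.9% ± 4.11 of immune nuclei and 5.04% ± 2.18 of intercalated cells, and the peak over a transcript start (chr1:138174940-138175643) in 14.2% ± 7.36 against 0.454% in principal cells. Near its 3' end, however, a peak (chr1:138083576-138084633) had 16.5% in principal cells and 0.436% in immune nuclei.

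Csf1r (chr18:61100598-61132149) had 17 peaks, of which PST led at 9 and immune nuclei at 7. The most open of them (chr18:61110086-61111002), over an exon, gave 38.6% and 34.8% of PST nuclei at P0, 43.2% in the P21 sample and 32.3% and 60% at P56. Immune nuclei had 1.01% and 3.51%, 0.00% and 1.19% and 7.92% in the same order, far below PST in each sample. PCT, the other proximal tubule cluster, followed PST at this peak with 21.4% ± 3.81. An intronic peak 8.06 kb from the start, where the former lies at 9.95 kb (chr18:61108263-61109058), was instead the most open in immune nuclei, with 18.98% ± 7.67, and PST had 14.2% ± 12.1. That immune lead was within the spread between samples and held in the 2 P0 samples, with PST ahead in the 3 adult ones, although after thinning immune nuclei had 7.20% and PST 1.81%. The Csf1r window therefore sums peaks that differ between a leukocyte and a tubule cluster.

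Irf8 (chr8:120736358-120756694) was the member least tied to immune nuclei, which led at 1 of its 11 peaks. Its start peak (chr8:120735926-120736966) was open in 15.9% ± 8.15 of immune nuclei, 26.3% ± 9.83 of PST and 19.9% ± 5.03 of stroma 2 nuclei. With nuclei thinned, immune nuclei had 5.61% and PST 2.15%, so the order at this peak turned with depth. A second peak over an exon (chr8:120743297-120744458) was highest in stroma 2 both before thinning, with 19.8% ± 6.21, and after it, with 3.79% against 2.26% in immune nuclei. The Irf8 gene body overlaps Gm20388, so these peaks cannot be given to one gene by position.

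Runx1 (chr16:92601466-92826149) is the longest member and carried 59 of the peaks, with 14 led by immune nuclei, 9 by intercalated cells, and 7 each by PST and nephron progenitors. The start peak (chr16:92826027-92826416) was open in 12.1% and 12.3% of immune nuclei at P0, 17.8% in the P21 sample and 7.14% and 16.8% at P56, and in 0.540% of loop of Henle nuclei, the next cluster. An intronic peak 128 kb from that start (chr16:92697353-92699154) was open across the kidney, with 23.8% ± 7.14 in immune nuclei, 22.3% ± 5.83 in principal cells and 18.6% ± 3.96 in podocytes, values that overlapped between samples. After thinning immune nuclei had 9.61% at this peak, podocytes 5.60% and principal cells 4.44%.

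Batf (chr12:85686669-85709087) had 7 peaks, 3 led by immune nuclei. The strongest (chr12:85705253-85706230), in an intron 19.1 kb from the start, was open in 28.3% and 24.6% of immune nuclei at P0, 17.8% in the P21 sample and 15.5% and 15.8% at P56, and in 12.2% ± 6.05 of stroma 2 nuclei. The Batf start peak (chr12:85686532-85687564) had 7.23% ± 1.72 in immune and 3.53% in stroma 1 nuclei. Cd74 (chr18:60803848-60812652) had 7 peaks, 4 led by immune nuclei. The peak over the Cd74 start (chr18:60803504-60804064) held 3.03% and 7.02% of immune nuclei at P0 and 22.2%, 19.05% and 31.7% in the adult samples. In the P0 samples PST nuclei, with 12.05% and 8.04%, were above immune nuclei there. A peak 3.73 kb upstream (chr18:60799785-60800444) belonged to stroma 2, with 12.6% ± 4.15, and was open in 0.436% of immune nuclei.

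**Figure D2:**
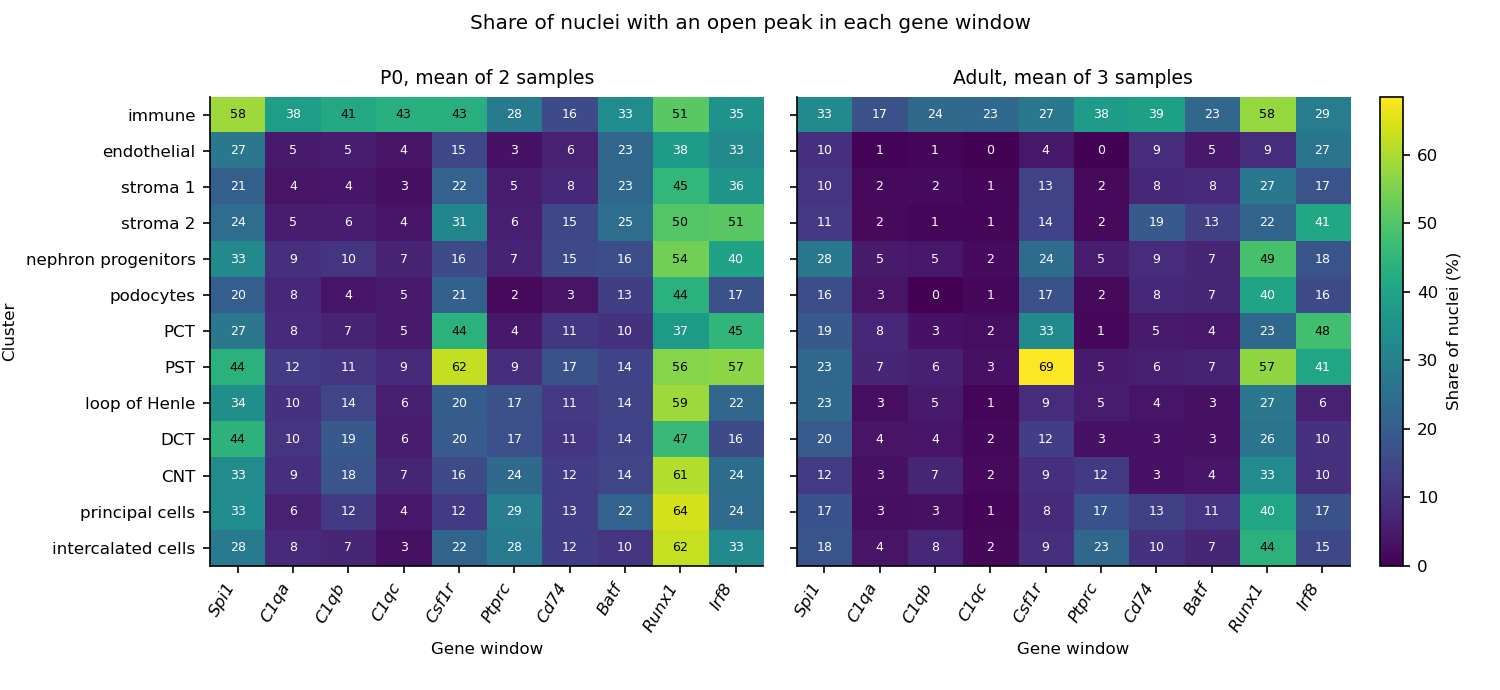
Share of nuclei (%) with at least 1 open peak in the window of each gene, for 13 clusters, as the mean of 2 P0 samples (left) and of 3 adult samples (right). Immune nuclei lead at the C1q genes at both stages and at Cd74 and Ptprc in the adult samples, while Csf1r is highest in PST at both.

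Taken by gene window, immune nuclei were highest for 7 of the 10 genes on the mean over samples. The leaders differed between the stages. In the P0 samples alone Ptprc and Runx1 were highest in principal cells and Cd74 in PST. In the adult samples alone immune nuclei were highest for these 3 genes, and Irf8 was highest in PCT. The order of the levels in immune nuclei ran from Runx1 at 55.0% ± 5.64 and Spi1 at 43.1% ± 14.5 through Ptprc at 34.0% ± 6.48, Csf1r at 33.7% ± 13.3, Irf8 at 31.3% ± 11.4, C1qc at 31.2% ± 12.7, C1qb at 30.7% ± 12.6 and Cd74 at 29.6% ± 13.8 to Batf at 26.9% ± 6.01 and C1qa at 25.4% ± 13.8. From Ptprc to C1qa the steps between neighbours were smaller than the SD of either. Shares also grow with the number of peaks in a window, which ran from 6 for C1qc to 59 for Runx1, so they do not rank the genes by openness per base. With the gene body and 2 kb upstream alone the C1q genes fell most, C1qa to 9.72%, C1qb to 16.5% and C1qc to 20.6% of immune nuclei. The 3 windows not led by immune nuclei were those of Csf1r, Runx1 and Irf8, all of them highest in PST, with 66.0% ± 9.12 for Csf1r, 56.6% ± 9.40 for Runx1 and 47.0% ± 13.9 for Irf8. After thinning, Runx1 was highest in immune nuclei with 29.7% ± 9.09 against 10.2% in PST, Csf1r had 14.2% in both immune and PST nuclei, and Irf8 was highest in stroma 2 with 11.3%.

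Across the 65 combinations of 13 clusters and 5 samples, C1qa and C1qc shares had a Pearson r of 0.95 and C1qb and C1qc one of 0.91, although these genes share peaks. Spi1 followed C1qb with 0.80, and Csf1r followed Irf8 with 0.66 but Ptprc with -0.01. These points share libraries and depth, and the values are descriptions. Among genes without a peak in common with the member, the 2 most alike over the 65 points were Gm38091 and Cd300c2 for C1qc with r of 0.96 in both cases, 2210009P08Rik and Mx1 for C1qa (0.91 and 0.90) and C1qb (0.90 and 0.90), and Clec12a and Slc36a3os for Ptprc (0.89 and 0.85). They were Atp13a2 and Guca1a for Spi1 (0.85 and 0.84), Tnfsf14 and Gm45857 for Csf1r (0.89 in both), Lilr4b and Ighv1-54 for Cd74 (0.77 and 0.76), Relt and Adcy7 for Batf (0.89 and 0.88), Hist1h3e and Ikzf3 for Runx1 (0.80 and 0.79) and Coro1c and Tctex1d4 for Irf8 (0.87 in both).

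The immune label was checked against further markers in the same windows. Of 19 macrophage genes, 10 were highest in immune nuclei, and of 13 pan-leukocyte genes also 10. The most open macrophage genes were Cd68 at 65.9% and Cx3cr1 at 61.1%, the latter higher in PST. The most open pan-leukocyte genes were Fli1 at 50.0%, higher in endothelial nuclei, and Cd52 at 45.5%. The leads of Cd68 and Cd52 were narrow, since another cluster reached 64.6% for Cd68 and 43.7% for Cd52. Of 8 neutrophil and mast cell genes immune nuclei led at 3, all of them low, S100a8 at 3.39%, Cpa3 at 1.87% and S100a9 at 0.646%. Ly6g had 0.351% and Ms4a2 0.00%, and Elane (11.2%) and Kit (4.28%), both higher in other clusters, the most open. Of T and NK cell genes the most open were Nkg7 at 28.7%, higher in PST, and Lck at 19.6%, higher in endothelial nuclei, so neither marked these nuclei. Immune nuclei led at 3 of the 12 genes. The 1 peak that Cd3d and Cd3g share, named with Cd3e after the values were seen, was open in 18.4% of immune nuclei and at most 1.36% of any other cluster, while Cd3e had 2.46% and was higher in PCT, Cd8a had 0.642% and no peak lay in the Ncr1 window. Among dendritic cell genes the highest were Tcf4 at 43.1%, led by endothelial nuclei, and Xcr1 at 37.0%, and among B cell genes Cd79a at 36.0%, higher in PST, and Cd79b at 21.4%. The cluster can hold several leukocyte types, and the members' values are sums over them. In the scRNA-seq libraries of the study, neutrophils made up 35.7% (exact 95% interval 33.4 to 38.1) of 1632 macrophages and neutrophils at P0 and 17.9% (13.2 to 23.4) of 235 in the adult library, with 1 library per stage and after a dissociation of cells rather than of nuclei.

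Next the stages were compared within immune nuclei, to see which of these genes are more open at birth and which in the adult kidney. Cd74 was higher in adult nuclei, while the C1q genes and Spi1 had larger values at P0 that did not pass the test. Cd74 had an open peak in 10.1% and 21.1% of P0 nuclei and in 35.6%, 36.9% and 44.6% of adult nuclei, with no overlap between the stages. Summed open calls of each window were compared by edgeR's quasi-likelihood test, 2 P0 against 3 adult samples, relative to all open calls of the sample and with Benjamini-Hochberg (BH) adjustment over 14628 windows. Positive log2 fold changes mean higher at P0. For Cd74 the log2 fold change was -2.14 (SE 0.320), edgeR adjusted p 0.0380. This made Cd74 1 of 2 windows called in the whole table (0.0137% of those tested), both higher in the adult samples, and the other, Mir5107, covers the same Cd74 peaks and is not a separate result.

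The Cd74 call depended on the analysis. It was lost with DESeq2 (adjusted p 0.0866), with a window of the gene body and 2 kb upstream (edgeR adjusted p 0.0627), with peaks over the starts of other genes left out (0.0691), without the P0 sample 1 (0.999) and without the P21 sample (0.115). No Cd74 peak lies over the start of another gene, so leaving those peaks out did not change the counts of the Cd74 window itself. The log2 fold change ran from -2.77 to -1.51 over all alternatives. With nuclei thinned to 1000 open peaks, Cd74 shares were 2.13% and 8.00% at P0 and 22.5%, 22.1% and 20.6% in the adult samples, again without overlap, and the edgeR call held (adjusted p 0.0138).

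**Figure D3:**
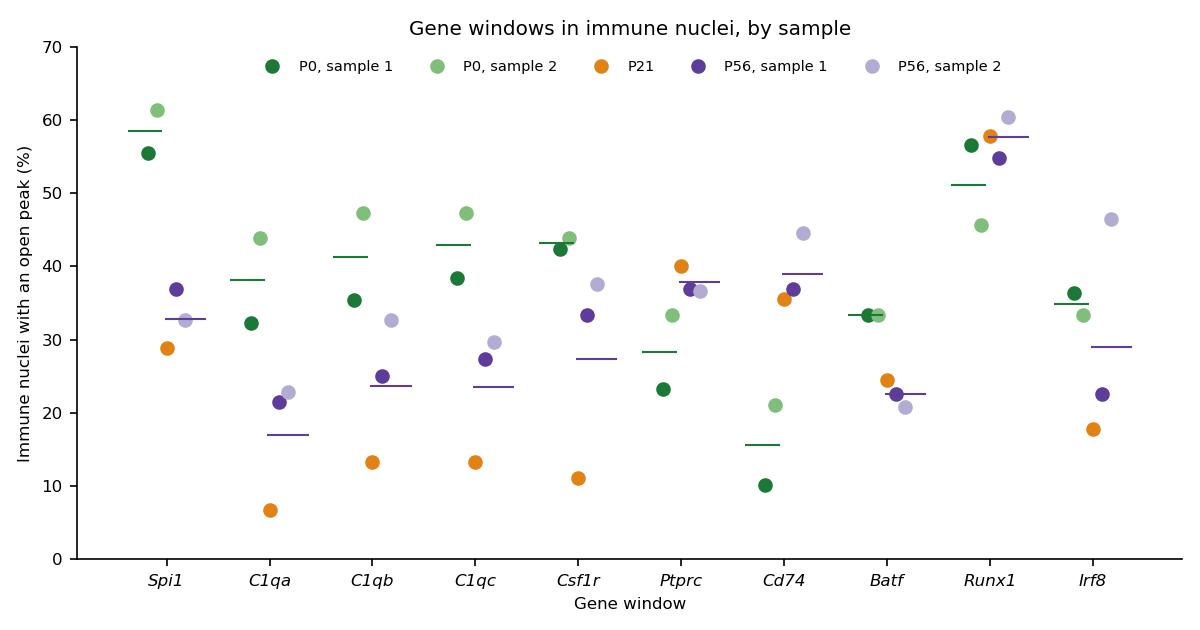
Share of immune nuclei (%) with at least 1 open peak in each gene window, 1 point per sample, with horizontal lines at the P0 mean (green) and the adult mean (purple). Cd74 and Ptprc have both P0 points below all adult points, whereas at the C1q genes and Csf1r the P21 sample lies below the others.

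The C1q genes had the opposite order. C1qa was open in 32.3% and 43.9% of immune nuclei at P0, 6.67% in the P21 sample and 21.4% and 22.8% at P56, C1qb in 35.4% and 47.4%, 13.3%, and 25.0% and 32.7%, and C1qc in 38.4% and 47.4%, 13.3%, and 27.4% and 29.7%. Both P0 samples lay above the adult ones for all 3 genes, and the P21 sample was the lowest. The edgeR log2 fold changes were 1.00 (SE 0.321) for C1qa, 0.74 (SE 0.284) for C1qb and 0.77 (SE 0.290) for C1qc, with adjusted p between 0.261 and 0.347, so none was called. After thinning the shares of the stages overlapped for all 3 genes, the log2 fold change was -0.022 for C1qb and 0.22 for C1qc, and C1qa was not tested. With the gene body and 2 kb upstream C1qb had 0.19. Spi1 gave 55.6% and 61.4% at P0 and 28.9%, 36.9% and 32.7% in the adult samples, with a log2 fold change of 0.71 (SE 0.236), 0.19 after thinning and 0.46 without the P56 sample 2, and an edgeR adjusted p of 0.274. Csf1r had 42.4% and 43.9% at P0, 11.1% in the P21 sample and 33.3% and 37.6% at P56, with 0.41 (SE 0.295), and Batf had 33.3% in both P0 samples and 20.8% to 24.4% in the adult ones, with 0.32 (SE 0.276), 0.02 after thinning. With single samples left out, Csf1r ran from 0.16 without the P21 sample to 0.61 without the P56 sample 1, and Batf from 0.06 without the P56 sample 2 and 0.10 without the P0 sample 1 to 0.43.

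Ptprc went with Cd74, with 23.2% and 33.3% at P0 and 40.0%, 36.9% and 36.6% in the adult samples. Its log2 fold change of -0.90 (SE 0.337) had an edgeR adjusted p of 0.325, and the value ran from -1.31 without the P56 sample 2 to -0.55 without the P0 sample 1. Runx1 and Irf8 overlapped between the stages, with 56.6% and 45.6% at P0 and 54.8% to 60.4% in adult nuclei for Runx1, and 36.4% and 33.3% at P0, 17.8% in the P21 sample and 22.6% and 46.5% at P56 for Irf8. Their log2 fold changes were -0.33 (SE 0.219), -0.16 after thinning, and 0.03 (SE 0.305). Runx1 ran from -0.55 without the P0 sample 1 to -0.18 without the P0 sample 2.

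By unadjusted p below 0.05 in edgeR, 4 of the 10 windows were higher at P0, the C1q genes and Spi1, where 5.58% of all tested windows were, and 2 were higher in adult nuclei, Cd74 and Ptprc, where 5.22% were. The C1q windows share peaks and do not count as independent. The median log2 fold change of the members was 0.36, and that of all tested windows -0.01. By shares, both P0 samples lay above all adult samples for 6 members, but so they did for 23.5% of all tested windows, and they lay below for Cd74 and Ptprc, as for 2.02% of windows. In a two-sided exact permutation test of 2 against 3 samples that doubles the smaller one-sided p, the smallest possible p is 0.2, which each of these 8 genes reached. After thinning, 10.7% of all windows had higher and 11.9% lower shares in both P0 samples, no member was higher, and Cd74 and Runx1 were lower in both.

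Of the 135 peaks, 9 passed the filter on low counts for a test of single peaks, so the counts at this level describe the most open peaks only. The Cd74 start peak was open in 3 and 4 immune nuclei at P0 and in 10, 16 and 32 in the adult samples. Both P0 counts lay below the filter on low counts, so the peak was tested only through the adult samples, where it was high. Its rank among the tested peaks is therefore no separate support. The 3.03% of the P0 sample 1 is also the share that a count of 0 there allows. It had a log2 fold change of -2.62 (SE 0.447) with an edgeR adjusted p of 0.000552, the smallest of all 6033 peaks tested, of which 9 were called, 6 (0.0995%) higher in adult nuclei and 3 higher at P0. The call was lost with DESeq2 (adjusted p 0.850) and without the P0 sample 1, the P21 sample or the P56 sample 2 (edgeR adjusted p 0.991, 0.110 and 0.682), and the adjusted p ran from 0.000573 to 0.991 over the alternatives. After thinning the peak was open in too few nuclei for the test. A second Cd74 peak (chr18:60805770-60806215) had -1.62 (SE 0.781), edgeR adjusted p 0.520, and -0.89 without the P0 sample 1. The other 7 tested peaks, in Spi1, C1qb, Csf1r, Ptprc, Batf, Runx1 and Irf8, had log2 fold changes between -0.61 and 0.66 and none was called. No C1qa or C1qc start peak was open in enough nuclei to be tested.

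Cd74 acts with MHC class II, and the other antigen presentation genes were examined beside it. Of 7 genes, all tested, none passed the edgeR test at an adjusted p of 0.05, 3 had an unadjusted p below it, all higher in adult nuclei, and 6 of 7 log2 fold changes were negative, with a median of -0.58. Of all tested windows 5.22% were higher in adult nuclei at that unadjusted p, and 7461 of 14628 had a negative log2 fold change. The 3 genes were H2-Aa, H2-Ab1 and H2-Eb1, and whether they are independent of one another was not tested. H2-Aa and H2-Ab1, singled out after their values were seen, encode class II chains. H2-Aa was open in 8.08% and 24.6% of P0 nuclei and 17.8%, 34.5% and 46.5% of adult nuclei, with -1.89 (SE 0.390) and an edgeR adjusted p of 0.115. H2-Ab1, with 8.08% and 21.1% at P0 and 26.7%, 25.0% and 45.5% in the adult samples, had -1.81 (SE 0.358) and H2-Eb1 -1.24 (SE 0.300). H2-Ab1 shares did not overlap between the stages, as for Cd74, and those of H2-Aa did, since the P0 sample 2 lay above P21. H2-DMa, the most open of the list at 63.2%, had -0.44 (SE 0.215). Immune nuclei led at 4 of the 7 windows. H2-DMa was higher in intercalated cells (75.5%), and H2-Ab1 (27.9%) and Ciita (55.0%) were higher in PST. Summed over the list, open calls were 0.509 and 0.678 per 1000 at P0 and 0.898 to 1.06 in the adult samples.

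**Figure D4:**
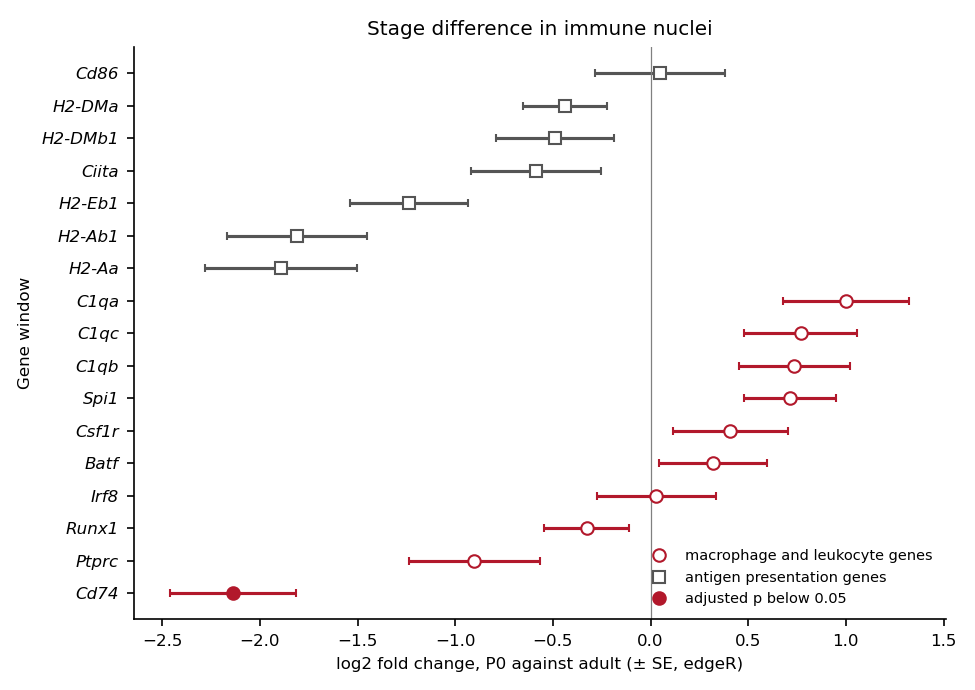
Log2 fold change of summed open calls between P0 and adult immune nuclei (points, with SE bars from edgeR) for the 10 genes and 7 antigen presentation genes. A filled point marks an adjusted p below 0.05, which Cd74 alone has at -2.14, with H2-Aa and H2-Ab1 the nearest at -1.89 and -1.81.

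Summed open calls of markers of other cells differed in value between the stages in immune nuclei, although no gene of these lists was called, and their part in the result was not tested. The T and NK cell list had 0.231 and 0.360 open calls per 1000 at P0 and 0.402 to 0.553 in adult samples. All 6 of its 12 genes that were tested lay on the adult side, none of them called, as did 7461 of all 14628 tested windows. Of these 6, Cd3d and Cd3g are 1 peak, Lck was highest in endothelial nuclei, and Tcf7, Nkg7 and Klrb1c were highest in PST. Tubule and podocyte genes had 0.237 to 0.252 at P0 and 0.330 to 0.644 in adult samples, with Slc12a3 (40.4%) and Slc34a1 (20.4%) the most open. Endothelial genes had 0.487 to 0.501 at P0 and 0.324 to 0.351 in adult samples, with Pecam1 (45.9%) and Cdh5 (14.4%) the most open, and stromal genes, led by Pdgfrb (13.4%) and Pdgfra (8.01%), 0.102 to 0.168 and 0.0691 to 0.0852. Macrophage genes overlapped between the stages, at 2.02 to 2.17 and 1.64 to 2.23, as did pan-leukocyte genes, at 1.64 to 1.79 and 1.24 to 1.89, and no gene of either list was called. For the AP-1, IRF and RUNX factors, Junb (65.5%) and Irf2 (57.8%) were the most open, 5 of 10 tested genes lay on each side, none was called and the sums were 1.51 to 1.89 and 1.56 to 1.84. The members themselves summed to 1.22 to 1.31 at P0 and 1.11 to 1.48 in adult samples. Dendritic cell genes had 0.555 to 0.587 and 0.475 to 0.516, B cell genes 0.351 to 0.373 and 0.263 to 0.422, neutrophil and mast cell genes 0.0819 to 0.0865 and 0.0461 to 0.0902, and erythroid genes, with Epor (40.5%) and Klf1 (33.2%) the most open, both higher in other clusters, and no peak in the Hbb-bt window, 0.294 to 0.323 and 0.211 to 0.253.

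Members that were open in the same nucleus were counted with the immune-led peaks of each locus, taking the C1q genes as 1 locus. At P0, 68 of 156 immune nuclei had an open C1q peak, and of these 60.3% had an open Csf1r peak and 72.1% an open Spi1 peak, where the other 88 nuclei had 25.0% and 35.2%. The C1q nuclei were also deeper there, with a median of 4996.5 open peaks against 2134. In the adult samples 63 of 230 nuclei had an open C1q peak, with a smaller gap in depth, 2493 against 2168. Csf1r was open in 50.8% of them and 12.6% of the rest, Spi1 in 41.3% and 20.96%, and Cd74 in 55.6% and 30.5%. Ptprc went the other way, with 25.4% of adult nuclei with an open C1q peak and 39.5% of those without, whereas at P0 it was open in 36.8% and 17.05%. Of the 8 loci, 50 of 386 nuclei (12.95%) had none open, 91 had 1, 83 had 2 and the most was 7, in 2 nuclei. These are counts of nuclei pooled over samples, without a test.

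The same windows were then compared between the stages in each of the other 12 clusters. Of 91 tests, 26 were called higher at P0 by edgeR, against 15.5% of all windows tested in these clusters, and 6 higher in adult nuclei, against 12.6%. Runx1 was called higher at P0 in 7 clusters, namely PCT, loop of Henle, CNT, principal cells, endothelial, stroma 1 and stroma 2, with log2 fold changes from 0.40 to 0.90. Batf was called higher at P0 in 4 clusters, most in loop of Henle with 1.29. Spi1 was called higher at P0 in PST, CNT and principal cells. Also higher at P0 were C1qa in loop of Henle and endothelial nuclei, C1qb in principal cells and stroma 2, and C1qc in loop of Henle. Ptprc, lower at P0 in immune nuclei by value, was called higher at P0 in PCT and loop of Henle. The 6 adult calls were Csf1r in nephron progenitors (-1.06) and PST (-0.54), Cd74 in endothelial (-1.87) and stroma 2 (-1.32), and Irf8 in endothelial (-1.09) and stroma 2 (-0.50). Irf8 was also called higher at P0 in 4 clusters, nephron progenitors (1.01), loop of Henle (1.00), CNT (0.92) and stroma 1 (0.63), and Cd74 in PCT (0.90), so that both genes had calls in either direction.

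Many of these calls need both P0 samples. With each sample left out in turn, 5 of the 32 calls were kept every time, which were Csf1r and Irf8 in nephron progenitors, Runx1 in CNT, Irf8 in endothelial and Cd74 in stroma 2 nuclei, and the number of calls fell to 6 without the P0 sample 1 and 9 without the P0 sample 2. The nephron progenitor cluster held from 52 to 1032 nuclei per sample. The authors describe it as enriched in the developing kidney. Whether its adult nuclei are the same kind of cell as its P0 nuclei was not tested. The endothelial Cd74 value rests on 1 library. Its shares were 5.07% and 7.52% at P0, 4.52% in the P21 sample and 3.09% and 18.6% at P56, and without the P56 sample 2 the log2 fold change was -0.44 with an edgeR adjusted p of 0.429. Shares and fits measure different things here. Irf8 was open in a smaller share of adult than P0 endothelial nuclei, 26.6% ± 3.32 against 32.6% ± 1.17, while relative to all open calls it was higher in the adult nuclei. Median open peaks of endothelial nuclei ran from 2099 to 7195.5 over the samples.

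**Figure D5:**
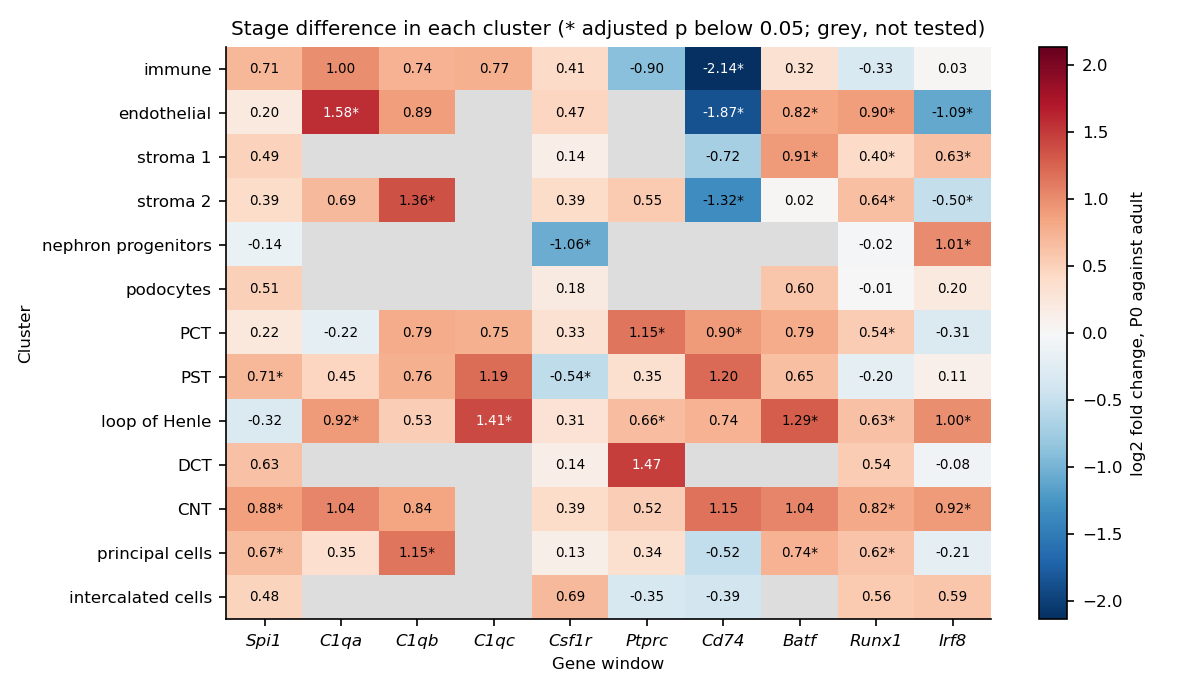
Log2 fold change between P0 and adult nuclei (edgeR, relative to all open calls) for each gene window in each cluster, with red for higher at P0, blue for higher in adult nuclei, a star for an adjusted p below 0.05 and grey where too few nuclei were open for a test. Among called values, Cd74 is blue in immune, endothelial and stroma 2 nuclei and red in PCT, and Runx1 is red in most clusters but not in immune nuclei.

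Whether the stage difference itself differed between immune and endothelial nuclei was tested by the interaction of stage and cluster in edgeR, with the sample as a block. Runx1 was called, with an immune minus endothelial log2 fold change of -1.29 (SE 0.248), edgeR adjusted p 0.00985, among 1.05% of the 24211 windows tested. In endothelial nuclei Runx1 had an open peak in 38.5% and 36.7% at P0 and 8.60%, 10.4% and 7.89% in the adult samples, without overlap, while in immune nuclei the stages overlapped. These shares are not scaled for depth, and after thinning the immune shares of Runx1 did not overlap, with 26.6% and 18% at P0 and 42.5%, 33.8% and 27.8% in the adult samples. The call was lost without the P0 sample 1 (adjusted p 0.355) and without the P0 sample 2 (0.314), where no window in the table was called, and its value stayed between -1.47 and -1.25 without either. Irf8 had 1.12 (SE 0.296, edgeR adjusted p 0.0635) and Ptprc -2.33 (SE 0.709, edgeR adjusted p 0.110), neither called. Irf8 was called without the P21 sample, without the P56 sample 2 and with no filter (edgeR adjusted p 0.0284, 0.00363 and 0.0192), and Ptprc with no filter (0.0461). Ptprc ran from -2.98 to -1.49 with samples left out, the latter without the P0 sample 1. For Cd74 the difference was -0.30 (SE 0.706), so the immune and endothelial values were not shown to differ, with an error wide enough to hide a sizeable gap.

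The share of member peaks with a motif lay above that of all peaks for some motifs and below it for others. GAGGAAGT was found in 4 of the 135 peaks (2.96%) and in 2.82% of all peaks, and in 2 of the 49 immune-led members (4.08%) where 9.90% of all immune-led peaks held it. IRF letters were found in 11.9% of members and 10.1% of all peaks, the ETS-IRF composite in 8.89% and 9.52%, RUNX in 5.19% and 6.97%, AP-1 in 14.8% and 10.5% and C/EBP in 8.15% and 13.2%. With so few members the exact interval for GAGGAAGT ran from 0.813% to 7.41%. The absence of these letters says nothing about whether a factor binds there.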

How the data were processed

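The authors prepared nuclei of whole mouse kidneys, used Cell Ranger ATAC 1.1.0 with mm10 for alignment, clustered nuclei on 5 kb bins with SnapATAC and Harmony, named clusters from marker genes, called peaks per cell type with MACS2 and merged them. The deposited matrix is binarized, so a value is a count of 0 or 1 open call per nucleus and peak, and the deposited metadata give each nucleus its sample and cluster. Here open calls were summed per sample and cluster over each gene window (GENCODE M21), which gave 130235 to 437788 open calls in immune nuclei of a sample. Sums were compared between stages by the quasi-likelihood method (edgeR 4.0.16, R 4.3.3, TMM, filterByExpr with a minimum count of 10 and total of 15, BH threshold 0.05), and tested first on simulated data. The simulated windows all shared a common dispersion, so that check cannot vouch for calls lost when single samples were left out. An SE was obtained from each log2 fold change and its F statistic, as their size over the root of F. DESeq2 1.42.0, other scaling, no filter, thinning to 1000 open peaks (seed 1), other windows, a replicate block and leaving out each sample were alternatives. Shares, exact permutation tests and intervals used scipy 1.17.1 with Python 3.11.15. Sequence was read from GRCm38.p6 of RefSeq, the mm10 assembly. Cluster and sample names came from the authors' labels. Doublets were not searched for. The 664 nuclei outside the 13 clusters were left out, and bulk ATAC-seq was not used here. Of the scRNA-seq libraries, the deposited cell labels were counted. The named genes are the 10 members with the peak over the start, the peak most open in immune nuclei, the peak most open elsewhere and every peak called by stage, and for each marker list the 2 most open genes in immune nuclei and any called by stage. Further marker genes (S100a8, S100a9, Cpa3, Ly6g, Ms4a2, Cd8a, Ncr1, Hbb-bt, Cd3d, Cd3e, Cd3g, Tcf7, Klrb1c, H2-Aa, H2-Ab1 and Ciita) were named after their values were seen. For likeness, the 2 genes with the highest Pearson r and no shared peak were taken. The members and lists were chosen with earlier results of these data known. As nothing states that samples are separate animals, p-values measure the spread between these samples.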

Additional observations from a re-analysis of the deposited data

Results flagged for a closer look

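The stage difference of Runx1 differed between immune and endothelial nuclei in the interaction test of edgeR, with an immune minus endothelial log2 fold change of -1.29 (SE 0.248, edgeR adjusted p 0.00985). The separate fits gave -0.33 in immune and 0.90 in endothelial nuclei. It was not called without the P0 sample 1 or the P0 sample 2, with adjusted p of 0.355 and 0.314 in edgeR, and why the clusters differ was not tested.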

How the results depend on the processing

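Limits are set by 45 to 101 immune nuclei per sample and 2 P0 samples. The 2 windows called in immune nuclei became 363 without a filter, 5 after thinning, and 0 with DESeq2, with the gene body and 2 kb upstream and with peaks over other gene starts left out, and ran from 0 to 237 with single samples left out, 0 without the P0 sample 1 or the P21 sample, 237 without the P56 sample 1 and 28 without the P56 sample 2. The 9 peaks called became 2 without a filter and 0 with DESeq2 or thinning, and ran from 0 to 240 with samples left out. With a replicate block 1 window and 4 peaks were called, and the Cd74 window was not (edgeR adjusted p 0.0555). Deviations from the stage mean correlated at 0.0180 to 0.0525 between same-numbered samples of different stages. With 2 P0 samples the P0 deviations mirror each other, so these values cannot decide whether such samples share more than a number. The 254 windows of the interaction became 645 without a filter and 0 to 1007 with samples left out, 0 without either P0 sample and 1007 without the P21 sample. The 32 calls in other clusters ran from 6 to 44. Shares did not overlap for 8 members, for 2 after thinning (Cd74, which was among the 8, and Runx1, which was not) and for 8 to 9 with samples left out. Without a filter C1qa was called (edgeR adjusted p 0.0258), and without the P56 sample 2 Ptprc (0.0402). Signs turned, with the cause not tested, for C1qb after thinning (-0.022), for Irf8 with other starts left out (-0.0014) and with samples left out (-0.20 to 0.57), for the Irf8 start peak with DESeq2 (0.03) and the replicate block (0.019), for the Runx1 intronic peak with samples left out (-0.48 to 0.16), and in the interaction with samples left out for C1qb (-0.97 to 0.47), Cd74 (-1.90 to 0.35) and Csf1r (-0.60 to 0.22). No Irf8 or Cd74 peak lies over the start of another gene, so leaving those starts out did not change the counts of these 2 windows. The counts of peaks and windows led by immune nuclei stayed within 1.5 times the main ones.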
